A study of Mus musculus with 62 samples.

Results

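H3K9me3 was compared between double knock-out (DKO) HSPCs, targeted for both Daxx and Pu.1, and Daxx-KO HSPCs at 8 w.p.i. By their labels both groups were Daxx F/F and they differed in the Pu.1 allele. The listed sites came from a sliding-window search over these same 6 libraries, and the 40105 sites on autosomes of the 42945 listed were analysed. The tables of the series read here listed 1547536 sites in all. The DKO group was 3 mice labelled Daxx F/F Pu.1 F/F and the control group 3 mice labelled Daxx F/F. All carried Cre, which the study's methods give as Mx1Cre, a transgene switched on by the interferon response to pI:pC, so deletion was not limited to HSPCs. The floxed Daxx mice were made in C57BL/6N and crossed with Cre mice of C57BL/6J. The floxed Pu.1 mice were C57BL/6J and were crossed with Daxx F/F mice carrying Mx1Cre. The groups may therefore also differ in background sequence, which was not tested. HSPCs here were lineage-negative, c-Kit+ bone marrow cells enriched with magnetic beads, a mixture of stem cells and committed progenitors. The labels give the strain only as C57BL/6. The age of each mouse is not given in the sources used here. CUT&Tag, in which an antibody tethers the transposase Tn5 to chromatin so that it inserts sequencing adapters beside the bound mark, was used for H3K9me3.

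H3K9me3 is the histone mark of constitutive heterochromatin. It covers satellite repeats around centromeres, retrotransposons, and clusters of zinc-finger and chemosensory receptor genes. Daxx is a chaperone that deposits the histone variant H3.3 at such repeats, and Pu.1, encoded by Spi1, is an ETS transcription factor needed for myeloid and B-cell development. No site was listed within 50 kb of Spi1 or of Daxx, so neither deletion could be checked in this table.

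Windows of 300 bases, from the centres of sites with the widest separation between the groups, are shown as examples. When reads were divided by the mean reads of each library's search windows, the 3 higher sites among them no longer separated the groups and the Map3k4 site still did. The sequences are from the RefSeq sequence of GRCm38.p6, which has the coordinates of mm10, on the plus strand, and capitals mark bases masked as repeats. The Rab10 window was chr12:3109751-3110050, the Gm10718 window chr9:3021576-3021875, the Dpy19l1 window chr9:24541951-24542250 and the Map3k4 window chr17:12269501-12269800.
Rab10 window, higher in DKO: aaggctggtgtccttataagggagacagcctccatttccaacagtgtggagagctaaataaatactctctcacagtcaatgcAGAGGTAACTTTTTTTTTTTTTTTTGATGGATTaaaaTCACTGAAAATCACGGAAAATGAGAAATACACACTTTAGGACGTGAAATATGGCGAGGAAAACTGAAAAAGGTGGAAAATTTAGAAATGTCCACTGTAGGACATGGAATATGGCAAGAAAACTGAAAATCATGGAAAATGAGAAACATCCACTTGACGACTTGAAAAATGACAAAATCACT
Gm10718 window, higher in DKO: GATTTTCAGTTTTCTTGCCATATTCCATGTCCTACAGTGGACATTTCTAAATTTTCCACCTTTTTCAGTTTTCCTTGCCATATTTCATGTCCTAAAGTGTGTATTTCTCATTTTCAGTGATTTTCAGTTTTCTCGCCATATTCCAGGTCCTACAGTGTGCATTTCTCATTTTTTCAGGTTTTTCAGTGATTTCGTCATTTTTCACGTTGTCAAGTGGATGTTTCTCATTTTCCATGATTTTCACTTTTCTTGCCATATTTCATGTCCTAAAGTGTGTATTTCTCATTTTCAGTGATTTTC
Dpy19l1 window, higher in DKO: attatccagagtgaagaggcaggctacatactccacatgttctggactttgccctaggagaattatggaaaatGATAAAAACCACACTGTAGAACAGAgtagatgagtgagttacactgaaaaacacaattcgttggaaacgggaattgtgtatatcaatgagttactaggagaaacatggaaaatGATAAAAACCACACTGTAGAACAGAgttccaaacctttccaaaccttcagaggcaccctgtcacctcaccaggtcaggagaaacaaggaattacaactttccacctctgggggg
Map3k4 window, lower in DKO: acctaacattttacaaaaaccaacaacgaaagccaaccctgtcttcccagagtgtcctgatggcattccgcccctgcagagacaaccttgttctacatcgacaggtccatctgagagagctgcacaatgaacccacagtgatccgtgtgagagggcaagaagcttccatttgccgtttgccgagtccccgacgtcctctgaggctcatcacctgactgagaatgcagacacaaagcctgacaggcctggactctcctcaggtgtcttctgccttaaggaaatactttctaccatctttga
The first and second of these carry the major satellite, the repeat that fills mouse pericentromeres, and were masked over 71.3% of the bases and over the whole window. Of the 12-base words in the Gm10718 site, 32.2% also occurred in the Rab10 site on either strand. The Map3k4 window held no masked base and 8 CpG dinucleotides. It does not stand for the lower sites. The windows at the lower sites nearest Zfp709 and Alyref2, which had wider gaps and are not shown, were masked over 88.0% and 45.3% of the bases.

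The 6 libraries differed widely in background before any site was compared. In the search windows of 600 bp, the DKO libraries of replicates 1 to 3 held a mean of 0.69, 0.2 and 3.29 reads, against 1.68, 1.37 and 1.51 in Daxx-KO. The deposited normalized counts were reads divided by a constant of each library, and these constants (0.49, 0.31 and 1.37 in DKO, 2.02, 2.0 and 1.3 in Daxx-KO) did not follow the mean reads. A single read was therefore worth 2.04, 3.27 and 0.73 normalized counts in the DKO libraries against 0.5, 0.5 and 0.77 in the Daxx-KO libraries. Values are normalized counts unless reads divided by the mean reads per window are named. Even read numbers made up 58.5% to 73.8% of the non-zero values, so reads were not independent and counting error is understated by their number.

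At 17979 sites (44.8%) every DKO library was above every Daxx-KO library, and at 9935 sites (24.8%) every DKO library was below. H3K9me3 was thus higher in DKO at 64.4% of the sites that separated the groups. With reads divided by the mean per window, 8477 sites were higher (21.1%) and 8885 lower (22.2%), so that 48.8% were higher. That share depended on single libraries, and was 68.2% (19028 higher sites) without DKO replicate 3 and 39.3% without DKO replicate 2. The same direction held under both scalings at 8148 higher and 8699 lower sites, and no site changed direction. The predominance of gains thus depended on the scaling and, in the second scaling, on the library left out, whereas 8699 of the 9935 losses were called under both scalings. A count of 0 stays 0 under either scaling. At 1312 of the losses all 3 DKO libraries had no read, so both scalings had to give the same call. At 5065 losses DKO replicate 2 had no read. Agreement between scalings was therefore partly fixed by absent reads. Sites were listed because these libraries differed, and 3 against 3 libraries cannot give an exact two-sided permutation p below 0.1, so no p-value is given.

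At the higher sites, medians of 16.3, 13.1 and 13.1 normalized counts in DKO stood against 3.47, 2.99 and 3.08 in Daxx-KO. At the lower sites they were 2.04, 0.0 and 3.64 against 17.4, 18.5 and 20.0. The median log2 ratio of the group means, with 0.5 added to each, was 2.16 at higher sites and -2.37 at lower sites. After division by the mean per window, with 0.1 added, it was 1.91 and -3.15. Over all sites it was 1.53, and 1.34 after that division. The lower sites rested on few DKO reads, with medians of 1, 0 and 5, against 35, 37 and 26 in Daxx-KO. DKO replicate 2 had no read at 5065 of them.

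**Figure D1:**
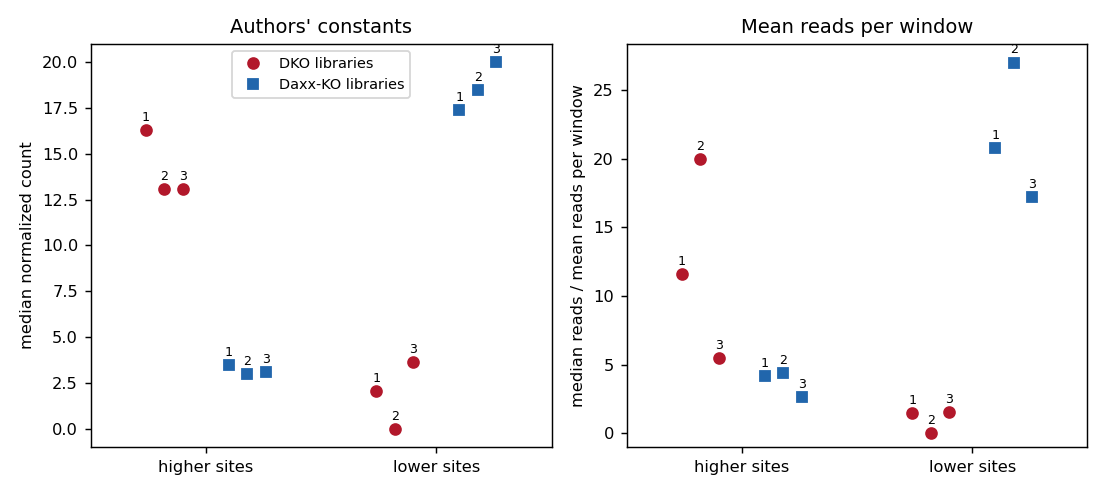
Median value of each library (numbered by replicate) at the 17979 sites higher and the 9935 sites lower in DKO, as deposited normalized counts (left) and as reads divided by the library's mean reads per 600-bp window (right). On the right, DKO replicate 3 falls to 5.47 at the higher sites, close to the Daxx-KO libraries at 2.65 to 4.37, while at the lower sites the groups stay far apart.

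The direction of change followed base composition closely. Below 36% GC, 91.3% of separated sites were higher in DKO, and the share fell through 86.9%, 75.2% and 50.0% in steps of 4 percentage points to 17.7% at 48% GC and above. After division by the mean per window the same classes gave 87.1%, 78.0%, 57.8%, 28.9% and 7.96%. The median GC content was 40.5% at higher and 46.4% at lower sites, with a mean of 6.16 and 15.3 CpG per kb, against 41.7% GC and 8.52 CpG per kb in 23959 autosomal windows of 700 bp placed every 100 kb. GC content can also alter the yield of a library, and its part in the direction of change was not tested.

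**Figure D2:**
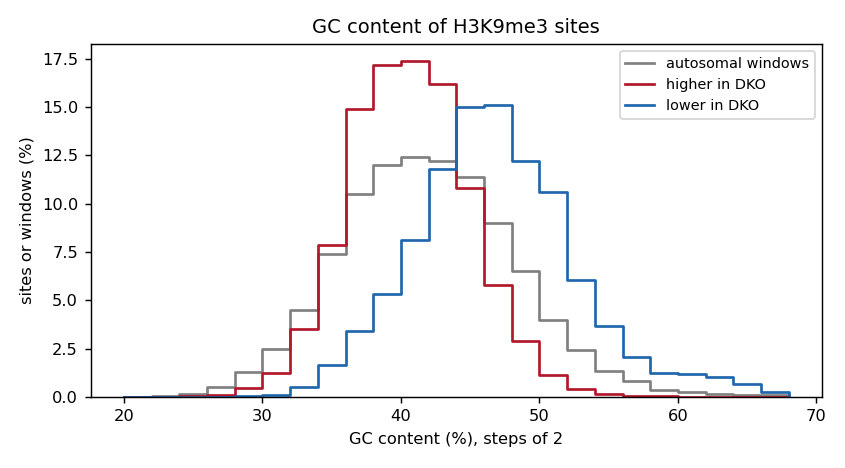
Share of sites or windows (y axis, percent) by GC content in steps of 2 percentage points, for sites higher in DKO, sites lower in DKO and 700-bp autosomal windows. Sites lower in DKO lie to the right of the windows (medians 46.4% and 41.7%) and sites higher in DKO slightly to the left (40.5%).

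The direction of change followed repeat content less closely than GC content. The median masked share was 34.9% at higher sites, 52.8% at lower sites and 23.9% in the windows. Among sites masked over 90% or more of their length, 56.8% of those separated were higher, and among sites masked under 10%, 66.1%. After division by the mean per window these were 39.1% and 51.4%, so that the direction turned for the most masked sites. Sites masked over 50 to 90% of their length likewise went from 56.9% to 39.1%. The word GAGGAAGT, a form of the Pu.1 motif, was found on either strand in 4.34% of higher and 5.71% of lower sites and in 4.26% of the windows. Such a match does not show binding.

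Most sites were far from promoters. Of the autosomal sites, 74.3% were intergenic, 18.7% intronic, 2.05% exonic and 5.02% within 1 kb of an annotated transcript start. At promoters 852 sites were higher and 526 lower (61.8% higher), against 44.1% higher after division by the mean per window. In introns the share was 67.4%, and 53.2% after that division, and in intergenic sequence it turned from 63.7% to 47.9%.

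The balance also varied along and between chromosomes. Higher sites made up 75.9% of separated sites on chromosome 7, but 52.5% on chromosome 2 and 53.8% on chromosome 13. Chromosome 7 also had the second highest share after division by the mean per window (59.5%), and chromosomes 2 and 13 had the lowest (34.2% and 36.8%). In the first 3 Mb of assembled sequence, next to the centromere, 459 sites were higher and 111 lower (80.5%). In the last 3 Mb, 310 were higher and 354 lower (46.7%).

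**Figure D3:**
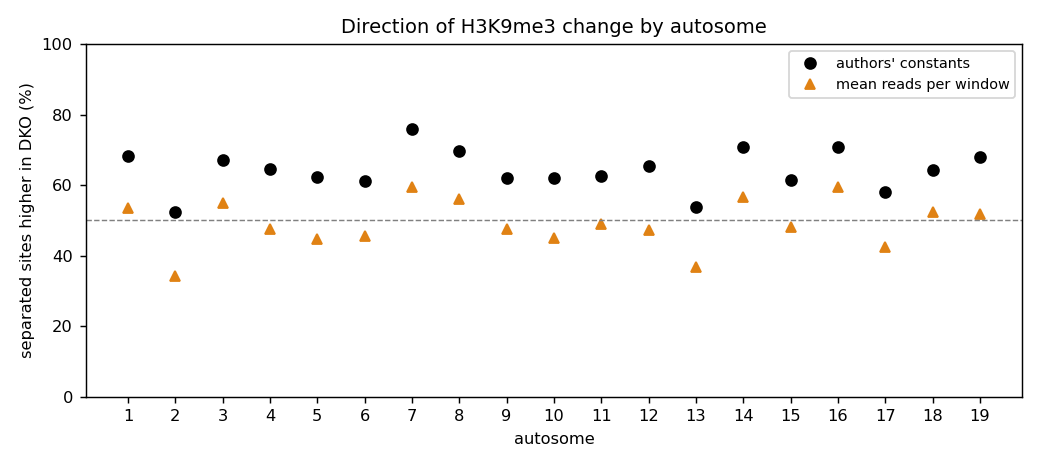
Share of separated sites that were higher in DKO (y axis, percent) on each autosome, with the authors' constants (circles) and with mean reads per window (triangles). Chromosomes 2 and 13 are lowest and chromosome 7 is among the highest under both scalings.

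A minority of the losses of H3K9me3 lay in large blocks. When the genome was divided into steps of 500 kb, a rule chosen after the values were seen, 24 steps held at least 20 lower sites that made up at least 75% of those separated. They joined into 17 blocks with 1023 lower sites, 10.3% of all, and 97 higher sites. Of the 24 steps, 13 held no start of a protein-coding gene, against 1116 of the 4041 steps with any site. GC content in the blocks was high (median 46.0%), but lower sites also prevailed there at 40 to 44% GC, with 36 higher and 178 lower, whereas outside all blocks 76.2% of separated sites in that class were higher. Since the blocks were picked by direction, these counts describe them and test nothing.

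The block with the most losses surrounded Ajap1, which encodes an adherens junction protein, on chromosome 4 from 152500001 to 154000000. It held 195 lower and 8 higher sites, and 186 and 1 after division by the mean per window. At its widest site, chr4:153425901-153427700 in an intron of Ajap1, the DKO libraries had 16.3, 26.1 and 40.1 normalized counts against 120.0, 128.0 and 111.0 in Daxx-KO. All DKO values were thus far below the lowest Daxx-KO value.

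A block on chromosome 12 from 106500001 to 108000000 held 147 lower and 6 higher sites, and 138 and 0 after division by the mean per window. It contained the start of only 1 protein-coding gene, 3110018I06Rik, and ended within Bcl11b, which encodes a transcription factor of T-cell commitment. All 9 sites within 50 kb of Bcl11b were lower in DKO. At chr12:107908851-107909700, just beyond the 3′ end of Bcl11b, the DKO libraries had 0.0, 0.0 and 1.46 against 10.4, 20.0 and 15.4 in Daxx-KO. H3K27me3, the mark laid down by Polycomb, was measured in HSPCs of the same mice, so its values do not come from independent animals. In this block 85 of its sites were higher and 6 lower in DKO.

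The most one-sided block, on chromosome 17 from 14000001 to 14500000, had 30 lower and no higher sites under both scalings. It holds Dact2, a modulator of developmental signalling, and Smoc2, a matrix protein. At chr17:14195301-14196850, in an exon of Dact2, the DKO libraries had 14.2, 0.0 and 8.75 against 73.9, 75.4 and 40 in Daxx-KO. In the table of Daxx-KO against WT at 8 w.p.i., which uses the same Daxx-KO libraries but was normalized separately, the overlapping site had 180.0, 173.0 and 69.5 in Daxx-KO, against 7.9, 3.37 and 5.0 in WT (mice with intact Daxx). In other mice, Daxx-KO was above WT at 140 sites of this block at 3 w.p.i. and at 164 sites at 24 w.p.i., and below at none. In the mice of the 8 w.p.i. comparison, H3K27me3 was higher in DKO than in Daxx-KO at 94 sites of the block and lower at none.

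Other blocks of losses had a mixed gene content. On chromosome 13, a block from 65500001 to 66500000 around Gm10324 held 184 lower and 6 higher sites, and one from 67500001 to 68000000 among zinc-finger genes such as Zfp58 and Zfp729a held 24 lower and 7 higher. On chromosome 2, a block from 171000001 to 172500000 held Cbln4, a synaptic organizer, and Mc3r, a melanocortin receptor, with 156 lower and 19 higher sites. After division by the mean per window these 3 held 157, 21 and 142 lower and 2, 0 and 0 higher sites. The remaining blocks held between 20 and 37 lower sites each.

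**Figure D4:**
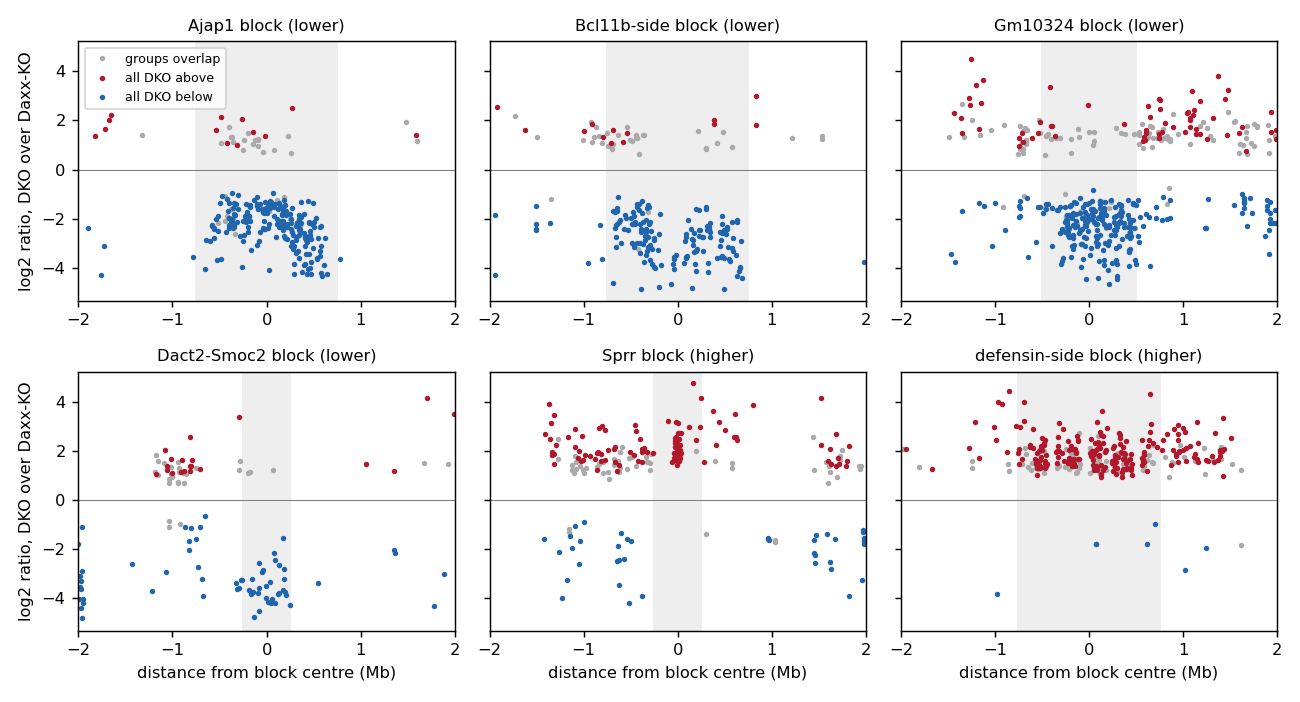
Log2 ratio of group means (DKO over Daxx-KO, y axis) of each site against its distance from the centre of a block in Mb (x axis), for 4 blocks of losses and 2 of gains; grey bands mark the blocks. In the block at Dact2 and Smoc2, the 30 sites with separated groups all lie below 0, and in the Sprr block the 39 sites with separated groups all lie above 0.

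Across the 17 blocks of losses, H3K27me3 was higher in DKO at 283 of its own sites and lower at 40 (87.6% higher, against 65.9% over that whole table). Only 11 of the 17 blocks had more higher than lower H3K27me3 sites, and the blocks on chromosomes 12 and 17 supplied 85 and 94 of the 283. For H3K9me3 in other mice, 81.6% of the separated sites in these blocks were higher in Daxx-KO than WT at 3 w.p.i., against 78.9% over that table. At 24 w.p.i. it was 48%, against 48.2%. These pooled shares hide wide differences between blocks. At 3 w.p.i. the block on chromosome 12 had 41 higher and 58 lower sites and that on chromosome 3 had 66 and 1. At 24 w.p.i. the block on chromosome 3 had 3 and 57, and that on chromosome 8 from 118500001 had 107 and 45.

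Gains also formed blocks, some of them in tandem gene clusters. By a stricter rule than that for losses, at least 30 higher sites making up at least 85%, 16 steps joined into 12 blocks. These held 661 higher sites, 3.68% of all, and 30 lower sites. Since the rules differ, the numbers of blocks cannot be compared between directions. Of 1025 steps with 10 or more separated sites, 25 had 90% or more lower and 205 had 90% or more higher. The Sprr cluster on chromosome 3, whose genes encode small proline-rich proteins of the skin barrier, held 39 higher and no lower sites (25 and 0 after division by the mean per window). At chr3:92278101-92285750, over Sprr2a3, the DKO libraries had 224.0, 301.0 and 239.0 against 45.2, 27.9 and 40 in Daxx-KO. At chr3:92242501-92247650, over Sprr2a2, they had 216.0, 176.0 and 171.0 against 36.7, 23.0 and 48.4 in Daxx-KO. Reads in such near-identical copies may be shared among them. In the table of DKO against WT, which shares the DKO libraries, the site at Sprr2a3 had 347.0, 373.0 and 298.0 in DKO and 42.2, 85.7 and 80.9 in WT.

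The other blocks of gains differed in gene content and shrank more under the other scaling. On chromosome 7, the Obox cluster of oocyte homeobox genes held 62 higher and no lower sites, and 2 stretches of the Vmn1r pheromone receptor genes held 44 and 71 higher against 2 and 0 lower. After division by the mean per window 27, 18 and 23 sites were higher there. A further block around Gm5591 held 30 higher and 3 lower, and 7 and 3 after division. On chromosome 8, 169 sites were higher and 4 lower beside Defb33, a beta-defensin gene (87 and 4 after division). On chromosome 14, a block with Sftpa1 and Sftpd, which encode lung surfactant proteins, and Mbl1, a mannose-binding lectin, held 30 higher and 1 lower (12 and 1 after division). At chr14:41131701-41133400, at the start of Sftpa1, the DKO libraries had 24.4, 32.7 and 48.1 against 1.49, 0.0 and 6.15 in Daxx-KO. The gains on chromosome 12 lay instead in 4 gene-poor blocks, with 31, 35, 31 and 67 higher sites, of which the other scaling left 10, 7, 9 and 14. A block of chromosome 13 with Edaradd and the prolactin family gene Prl2c3 held 52 higher sites, and 21 after division.

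The single sites with the widest gap between groups fell into a few kinds. Of 12 named per direction, 6 of the higher and 7 of the lower sites were also separated after division by the mean per window. Several of the higher ones were pericentromeric. At the Rab10 site, chr12:3109301-3110500, 200069 bp from the nearest protein-coding start, the DKO libraries had 25159, 39690 and 50571 normalized counts against 17672, 16774 and 24643 in Daxx-KO. This 1.95-fold difference, like those at Gm10718 (1.59-fold) and Gm11168 (1.79-fold), was not kept by the other scaling. Collapsed satellite copies take reads from many loci, so these values do not belong to one place.

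The sharpest gain was at an intergenic site 44334 bp from the start of Nfe2l2, which encodes the oxidative-stress regulator Nrf2. At chr2:75748601-75749350 the DKO libraries had 159.0, 163.0 and 131.0 against 2.98, 5.99 and 5.38 in Daxx-KO. The means were 151.0 ± 17.4 and 4.78 ± 1.59 (SD, n = 3 each), a 28.7-fold difference. In the table against WT, which uses the same DKO libraries but was normalized separately, it had 168.0, 173.0 and 138.0 in DKO. The WT libraries had 0.0, 2.46 and 4.3. No Daxx-KO or WT library came near a DKO library. Since the DKO libraries are shared, the table against WT is not a second observation of their high signal. Spi1 lies on the same chromosome, from 91082390 to 91115756. Whether sequence linked to the floxed Pu.1 allele differs at this site was not tested.

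The other higher sites had no common gene content. At chr15:75085201-75087550, 25595 bp from the start of Ly6c2, which encodes a monocyte surface protein, the DKO libraries had 525.0, 333.0 and 612.0 against 57.6, 126.0 and 178.0 in Daxx-KO. In the table of Daxx-KO against WT the WT libraries had 1158, 1262 and 2188 there, against 105.0, 232.0 and 310.0 in Daxx-KO. Daxx-KO was thus below DKO in one table and below WT in the other. The Daxx-KO libraries were the same in both tables, so this is not a second observation of their low signal. No overlapping site was listed for DKO against WT. In an intron of Ksr1, a scaffold of the MAP kinase cascade, DKO had 118.0, 203.0 and 140.0 against 38.2, 28.4 and 7.69 in Daxx-KO. Over Kpna1, a nuclear import receptor, DKO had 110.0, 137.0 and 307.0 against 5.96, 6.99 and 41.5 in Daxx-KO. The middle of that site lies 3000 bp from the gene's start, and the site is within 1 kb of an annotated transcript start. The sites nearest Dpy19l1 (1.95-fold), Rpusd4 (3.2-fold) and Gad2 (5.53-fold) were not separated under the other scaling.

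**Figure D5:**
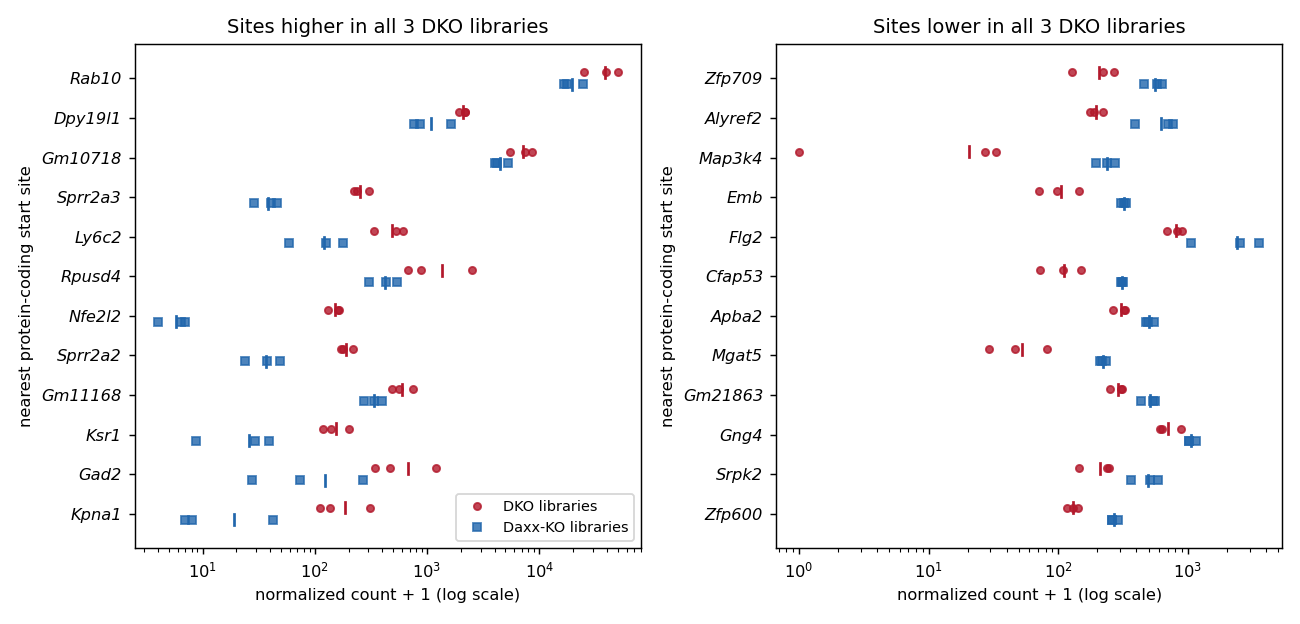
Normalized counts plus 1 (log x axis) in each library at the 12 sites per direction with the widest gap, named by the nearest protein-coding start (the Gad2 site lies in Myo3a and the Gng4 site in Lyst); vertical ticks are means. All DKO points lie on one side of all Daxx-KO points, farthest apart at the Nfe2l2 and Map3k4 sites.

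Of the 12 lower sites named for the widest gap, the one over Map3k4, a kinase of stress signalling, had the largest fold. At chr17:12266001-12273300, which includes the start of one Map3k4 transcript, the DKO libraries had 0.0, 26.1 and 32.1 against 275.0, 237.0 and 196.0 in Daxx-KO. The means were 19.4 ± 17.1 and 236.0 ± 39.7 (SD, n = 3 each), an 11.9-fold difference. In the table of Daxx-KO against WT, the same Daxx-KO libraries, normalized separately, had 574.0, 471.0 and 396.0. The WT libraries had 12.6, 15.2 and 45.0. Like the Dact2 site, it was thus higher in Daxx-KO than in DKO in one table and than in WT in the other. The Daxx-KO libraries were the same in both tables, so this is not a second observation of their high signal. The Map3k4 and Dact2 sites both lie on chromosome 17, 21.6 and 19.7 Mb from Daxx.

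The other lower sites of that group differed by 1.51-fold to 4.21-fold. The site nearest Zfp709, 71.7% masked, had 126.0, 222.0 and 268.0 in DKO and 573.0, 633.0 and 456.0 in Daxx-KO. Over Flg2, a filaggrin family gene of the epidermis, DKO had 906.0, 817.0 and 691.0 against 2508, 3563 and 1059 in Daxx-KO. That site spanned 10650 bp, was 83.3% masked and was not separated after division by the mean per window. The site nearest Emb, an embigin adhesion protein, had 97.7, 144.0 and 70.7 in DKO and 322.0, 333.0 and 302.0 in Daxx-KO, and that nearest Mgat5, a glycosyltransferase, 28.5, 45.8 and 80.9 against 209.0, 217.0 and 232.0 in Daxx-KO.

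Receptor and zinc-finger families held most of the sites in gene lists, counted within 5 kb of a gene. Over vomeronasal receptor genes, 156 sites were higher and 44 lower (78.0% higher, and 77 and 41 after division by the mean per window). Over olfactory receptor genes 187 were higher and 103 lower, or 64.5%, beside 64.4% over all sites, and 99 and 97 with the other scaling. Over zinc-finger protein genes 223 were higher and 102 lower (68.6%), but 43 and 72 with the other scaling, so the direction turned. The clustered protocadherins had 11 higher and 10 lower, and 3 and 7 with the other scaling. Hox genes and the genes of nucleic-acid sensing and interferon response had no site.

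Within these families single genes differed in direction. Zfp981 had 3 higher and 9 lower sites, and Zfp936 7 higher and 2 lower. Vmn1r139 had 5 higher and no lower sites, and at chr7:22099101-22099900 the DKO libraries had 16.3, 19.6 and 11.7 against 3.97, 0.0 and 5.38 in Daxx-KO. Vmn2r7 had 1 higher and 4 lower sites, and at chr3:64813151-64813750 DKO had 8.14, 0.0 and 7.29 against 21.8, 23.5 and 19.2 in Daxx-KO. Olfr1307 had 1 higher and 3 lower sites, and Olfr504 3 higher and 1 lower.

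Of 20807 autosomal protein-coding genes, 3216 (15.5%) had a site within 5 kb, and of 49 haematopoietic transcription factors matched, 4 did. By nearest start site, which reaches farther, these factors had 19 higher and 30 lower sites (38.8% higher, beside 64.4% over all sites). They were not counted so with the other scaling, under which 48.8% of all separated sites were higher. All 9 sites within 50 kb of Bcl11b were lower, so 1 locus may weigh on this share. Besides Bcl11b, an intron of Ikzf2, an Ikaros family gene, had 0.0, 9.81 and 5.83 in DKO and 50.6, 32.9 and 47.7 in Daxx-KO. Mecom, a regulator of stem cell self-renewal, had 2 higher and 1 lower sites. The widest of them, in an intron, had 8.14, 9.81 and 10.2 in DKO and no read in Daxx-KO, and an intron of Mitf 12.2, 6.54 and 10.2 against none. These values rested on 4, 3 and 14 DKO reads at Mecom and 6, 2 and 14 at Mitf. Of 34 myeloid genes, Fcgr3 alone had a site, with 2.04, 0.0 and 0.0 in DKO and 5.46, 14 and 15.4 in Daxx-KO. These were 1, 0 and 0 reads in DKO and 11, 28 and 20 in Daxx-KO. In DKO replicate 2, 3 reads come to 9.81 normalized counts, so the absence of reads does not place it below 5.46. The 24 B-lineage genes matched had 1 site, with overlapping groups, and of 26 genes of H3K9 methylation and repeat silencing, Atf7ip and Zfp809 each had 1 higher site, neither kept by the other scaling.

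The gluconeogenesis genes Fbp1 and Fbp2, which are neighbours on chromosome 13, had a single site between them. At chr13:62837451-62838050, in an intron of Fbp2, the DKO libraries had no read and those of Daxx-KO 10, 10 and 8 reads (4.96, 4.99 and 6.15 normalized counts). Since 3 reads, the limit that a count of 0 allows, come to 6.11, 9.81 and 2.19 normalized counts in the DKO libraries, only replicate 3 was deep enough to be below Daxx-KO there.

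Few H3K9me3 sites overlapped an H3K27me3 site of DKO against Daxx-KO, a mark measured in the same mice. Of all H3K27me3 sites, 55.5% were higher and 28.7% lower in DKO. Of the 9935 lower H3K9me3 sites, 60 overlapped a higher and 11 a lower H3K27me3 site (84.5% higher), which is 0.194% and 0.0689% of those H3K27me3 lists. Of the 17979 higher sites, 51 overlapped a higher and 48 a lower one (51.5%), which is 0.171% and 0.313%.

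Sites were also set beside Daxx-KO against WT in other mice. At 3 w.p.i., H3K9me3 was higher in Daxx-KO at 78.6% and lower at 21% of that table's sites. Of the lower DKO sites, 1242 overlapped a site higher and 1124 a site lower in Daxx-KO (52.5% higher), which is 2.78% and 9.15% of those lists. Of the higher DKO sites, 1799 and 348 did (83.8%), 4.06% and 3.0%. At 24 w.p.i., with 46.9% higher and 50.3% lower in the table, the lower DKO sites met 1496 and 1946 (43.5%), 2.35% and 2.82% of those lists, and the higher ones 1289 and 2340 (35.5%), 2.01% and 3.26%.

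Where losses in DKO overlapped an H3.3 or Pu.1 site of 3 w.p.i., it was mostly a site of greater signal in Daxx-KO. Such losses were a minority. Of the lower DKO sites, 14.1% overlapped a higher and 3.6% a lower H3.3 site, and 14.9% and 4.4% did so for Pu.1. H3.3 was higher at 57.7% and lower at 40.7% of its sites, and Pu.1 at 54.1% and 44%. Of the lower DKO sites, 1402 overlapped higher and 358 lower H3.3 sites (79.7% higher, 1.77% and 0.658% of those lists), and 1483 and 437 did so for Pu.1 (77.2%, 1.8% and 0.668%). Of the higher DKO sites, 489 and 558 did for H3.3 (46.7%, 0.635% and 1.01%), and 570 and 671 for Pu.1 (45.9%, 0.696% and 1.0%). The antibodies gave nearly the same shares, and GC content, which differs between higher and lower DKO sites, was not matched.

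At 24 w.p.i. the shares for H3.3 lay closer together and those for Pu.1 changed order. H3.3 was higher at 51.3% and lower at 47% of its sites. The lower DKO sites met 1028 higher and 806 lower H3.3 sites (56.1%, 0.825% and 0.724% of those lists), and the higher ones 1240 and 1110 (52.8%, 1.02% and 1.01%). For Pu.1, with 46.9% higher and 51.3% lower, they met 825 and 981 (45.7%, 0.754% and 0.822%), and 1173 and 1029 (53.3%, 1.05% and 0.865%).

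H3K27ac, a mark of active promoters and enhancers, met few of these sites. At 3 w.p.i. it was higher in Daxx-KO at 39.2% and lower at 58.4% of its sites. The lower DKO sites met 190 and 146 of them (56.5% higher, 0.49% and 0.257% of those lists), and the higher ones 208 and 162 (56.2%, 0.536% and 0.285%). At 24 w.p.i., with 41.3% higher and 56% lower, they met 388 and 303 (56.2%, 0.497% and 0.295%), and 237 and 344 (40.8%, 0.306% and 0.32%).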

How the data were processed

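CUT&Tag libraries of H3K9me3 from 3 DKO and 3 Daxx-KO mice at 8 w.p.i. were compared. Per the file headers, the authors called sites with diffReps 1.55.6 (windows of 600 bp, steps of 50 bp, window p cutoff 0.0001) and deposited a normalized count per library, which is reads divided by a library constant. The submitters' processing notes name CASAVA 1.8.4, cutadapt 1.13, STAR 2.5.3 and bedtools, and mm10. The tables also hold the authors' fold changes and p-values, which were not used. Of 15 tables of the series 12 were read.

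A site was called higher or lower where all 3 DKO libraries lay above or below all 3 Daxx-KO libraries. No test was run, since sites had been chosen on these libraries. Whole reads were recovered for at least 99.9% of non-zero values (within 0.1 of a whole number). Counting and overlap steps were tested on simulated data. Genes and promoters (1 kb) came from GENCODE M21, and GC and masked bases from GRCm38.p6. Log2 ratios are of group means plus 0.5, or plus 0.1 after division by mean reads per window. Sites of different tables were matched by 1 bp of overlap, and those meeting both directions were left out of shares.

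The members and lists were chosen with earlier results of these data known. Genes were named as the 12 sites per direction with the widest gap, the widest promoter site per direction, up to 4 genes per list with the most separated sites, and Spi1, Daxx, Fbp1 and Fbp2. Block sites, and Zfp58, Zfp729a and the other genes named in blocks, were chosen after their values were seen. Alternatives were another scaling, the sign of group means, a minimum mean of 20, merging within 1 kb, at most 50% masked sequence, removal of 5 Mb around Spi1 and Daxx, promoters of 3 kb, overlap of 50%, nearest start sites for lists, and each library left out. Python 3.11.15, numpy 2.4.6, pandas 2.3.3 and scipy 1.17.1 were used.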

Additional observations from a re-analysis of the deposited data

How the results depend on the processing

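The counts of 17979 higher and 9935 lower sites, and the share of 64.4%, moved under several alternatives. By the sign of the group means 29247 sites were higher (72.9%). With a mean of at least 20 normalized counts in the higher group 5958 were higher and 4683 lower (56.0%), and with at most 50% masked sequence 11192 and 4786 (70.0%). Merging sites within 1 kb gave 65.4%. Dividing reads by the mean per window gave 8477 higher (48.8%), and at promoters 44.1%, while promoters of 3 kb gave 65.0%. Leaving out 5 Mb around Spi1 and Daxx moved none of the 3.

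With each library left out in turn, 18646 to 21653 sites were higher, 10016 to 10886 lower and 64.8% to 68.4% higher. In the other scaling, an alternative added after the data were seen, these ranges were 8694 to 19028, 8892 to 13430 and 39.3% to 68.2%. There the direction changed with the library left out: without DKO replicates 1 to 3 in turn, 9102 (47.8%), 8694 (39.3%) and 19028 (68.2%) sites were higher, and without Daxx-KO replicates 1 to 3, 10787 (54.2%), 11516 (56.2%) and 9305 (47.4%). The cause was not tested.

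With an overlap of 50% of the shorter site, the share of overlapped sites that were higher at 3 w.p.i. became 85.5% at higher and 47.1% at lower DKO sites for H3K9me3, 82.7% at lower sites in the H3.3 table, and 42.4% and 80.5% in that of Pu.1. At 24 w.p.i. it became 45.9% at lower sites for H3K9me3. For sites separated under both scalings, also added later, the shares at 3 w.p.i. were 87.5% (higher) and 57.6% (lower) for H3K9me3, 41.4% and 76.3% in the H3.3 table, and 40.6% and 73.6% in that of Pu.1. By nearest start site, zinc-finger and olfactory receptor genes both had 58.8% higher.

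No paired analysis was possible because the replicate numbers name different mice and no model was fitted. Depth limits the lower sites most, where 1 read of DKO replicate 2 is 3.27 normalized counts.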
